A study of Mus musculus with 15 samples.

Results

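The full developmental span of the series, from the embryo (E15.5) to postnatal day 14 (P14), was examined by comparing 6 of its 15 RNA-seq libraries. The comparison set the 3 libraries titled P14 against the 3 titled E15.5, in counts of reads per gene. All 6 came from mouse cerebellum and carried one cell type label, cerebellar granule neuron precursors, also called granule neuron progenitors (GNPs). The E15.5 libraries had the genotype label Math1-GFP, a reporter for the gene now named Atoh1, and the P14 libraries were wild type (WT). No treatment was given in the labels. Age and genotype label changed together between the groups and cannot be told apart. Cells were enriched on Percoll, a density gradient that separates cells by buoyancy and not by a lineage marker. Whether the E15.5 cells were also sorted on GFP was not stated, and a sort at that age alone cannot be told apart from age in any marker difference. Whether a library came from 1 animal or from pooled litters was not stated, so p-values measure the spread between these libraries, which may be technical. The other 9 libraries (P1, P7 and medulloblastoma, 3 each) entered the model only for the estimate of spread, and P1 and P7 means are given where they help to place a change in time.

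Granule neurons are the most abundant neurons of the brain. Their precursors leave the rhombic lip under the transcription factor Atoh1, spread over the cerebellar surface as the external granule layer, and divide there in response to Sonic hedgehog from Purkinje cells. Daughter cells stop dividing, extend parallel fibres, migrate inwards along Bergmann glia, and form synapses with mossy fibres, Golgi cells and Purkinje cells. At E15.5 the external granule layer is still being laid down and neighbouring rhombic lip derivatives, such as cerebellar nuclear neurons, have only recently left it. At P14 the layer is close to its end and most granule neurons have reached the internal granule layer.

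Expression differed over much of the transcriptome between these ages. The edgeR quasi-likelihood fit covered 15259 genes, of which 4071 were higher at P14 (26.7%) and 3695 were lower (24.2%) at an adjusted p under 0.05, so that 50.9% were called in either direction. Counted per transcription start site model, 8131 of 16378 were called (49.6%). Rises were larger than falls. At least a 2-fold difference was seen for 3260 of the higher genes (21.4% of those tested) and for 1820 of the lower genes (11.9%), and against a tested minimum of 2-fold 2290 and 805 genes passed. The median log2 fold change was 2.06 among genes called higher and -0.99 among genes called lower. The P14 and E15.5 libraries did not overlap in level for 4054 of the higher genes and 3583 of the lower genes, against 10143 of all 15259 genes tested (66.5%). Genes named below by size or as list examples were picked among called genes without overlap, so their separation is a condition of the choice. Counts were 0 in every E15.5 library for 84 genes called higher, and 0 in every P14 library for 6 genes called lower.

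The libraries held 12597472 to 43443132 gene counts at E15.5 and 28778026 to 31115364 at P14. The E15.5 libraries scattered more, with a median SD of log2 CPM (counts scaled to a common library size, per 1e+06) of 0.328 against 0.144 at P14. E15.5 replicate 3 stood apart: genes with over 5 kb of exonic length took 18.5% of its counts against 28.3% and 31.1% in the other E15.5 libraries and 26.5% to 32.8% at P14, and genes under 1 kb took 7% against 3.72% and 4.16%. Reads with several alignments, which were left uncounted, were 32.3% to 42.2% of records at E15.5 and 22.9% to 25.3% at P14. The series also falls into 2 counting sets by the deposited gene counts of Tsnax, and all P14 libraries lie in the set of E15.5 replicate 2. Fitted within that set, where E15.5 has 1 library, 3597 genes were higher and 3427 lower. The other set holds no P14 library and gives no value.

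The cell type label was checked first against markers. Of 10 granule neuron markers, 8 were higher at P14 (80% against 26.7% of all genes), none was lower, and their summed level lay at 2086 to 3181 CPM at E15.5 and 5378 to 5942 CPM at P14. Granule neuron precursor markers split, with 2 of 8 higher (Gli1 and Insm1) and 2 lower (Atoh1 and Mycn), which at 25% each is near the background of 26.7% and 24.2%, and their summed level was 1567 to 2510.2 CPM at E15.5 and 1933 to 2381 CPM at P14. Within the counting set of P14, 5 granule neuron markers were higher and 1 precursor marker was lower.

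Median changes were larger for markers of glia, vessels and choroid plexus than the 1.42 of the granule neuron markers. All 12 oligodendrocyte lineage markers were higher at P14 (median log2 fold change 5.64), and their summed level lay at 99.8 to 125 CPM at E15.5 and 6913 to 7464 CPM at P14. All 12 astroglial markers were higher (median 5.05), at 377 to 538 CPM against 5136 to 6440.0 CPM. All 8 endothelial markers (median 4.85), all 10 mural and meningeal markers (median 4.97) and 11 of 12 markers of microglia and macrophages (median 3.31) were higher as well, against a background of 26.7%. Choroid plexus markers summed to 97.5 to 381 CPM at E15.5 and 5213 to 8619.8 CPM at P14, with 6 of 7 called higher and 2 of 7 within the counting set of P14. The choroid plexus sum was uneven at the ages between, at 409, 10542 and 4007 CPM in the P1 libraries and 52.8, 528 and 2041 CPM at P7. It therefore did not rise steadily with age. In bulk RNA, more cells of a type and more RNA per cell cannot be told apart.

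Interneuron markers moved the opposite way. Among GABAergic interneuron markers, 8 of 9 were lower at P14 (88.9% against 24.2%). Pax2, a marker of interneuron precursors, stood at 139, 113 and 87.5 CPM in the E15.5 libraries and at 23.9, 14.6 and 21.8 CPM at P14 (log2 fold change -2.50 ± 0.40, adjusted p = 0.000122). The vesicular GABA transporter gene Slc32a1 went from 116, 89.9 and 144 CPM to 20.2, 17.4 and 28.4 CPM. Both genes were high in every E15.5 library and did not overlap between the groups, which the rule for naming examples required. Of 8 ventricular zone progenitor markers, 4 were lower (50% against 24.2%), among them the Notch ligand gene Dll1 at 61.8, 52.7 and 56 CPM against 6.34, 6.42 and 7.52 CPM, and Sox2, which glia also express, was called higher (log2 fold change 1.43 ± 0.31, adjusted p = 0.00126). The median over this list was -0.92, and 0.26 within the counting set of P14. No marker of these classes was at 0 in all libraries of a group. The part of this shift in cell type markers in the gene groups described next was not tested.

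**Figure D1:**
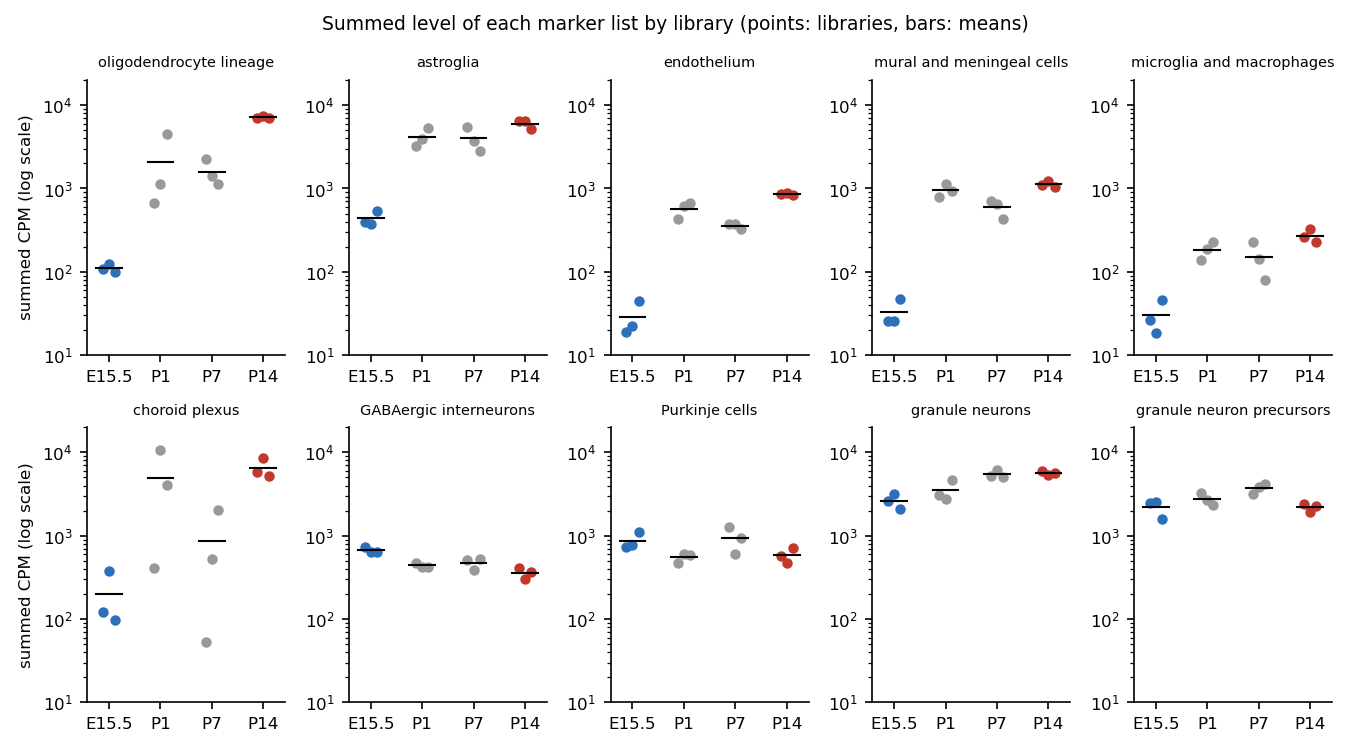
Summed CPM of each marker list drawn (log scale) in every library at E15.5 (blue), P1 and P7 (grey) and P14 (red), with points for libraries and bars for means of 3. The lists of ventricular zone progenitors and erythroid cells are not drawn. Oligodendrocyte lineage markers sit at 99.8 to 125 CPM at E15.5 and 6913 to 7464 CPM at P14, while granule neuron precursor markers span 1567 to 2510.2 CPM and 1933 to 2381 CPM.

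The largest rises belonged to a granule neuron receptor subunit and to glial genes. Gabra6 (ENSMUSG00000020428, mm9 chr11:42119940-42134553), which encodes the GABA-A receptor α6 subunit of mature granule neurons, had 0 counts in each E15.5 library and 161, 202 and 164 CPM in the P14 libraries. Over the group, its 16348 P14 counts put it at least 4287-fold higher, taking a floor of 3 counts at E15.5 (adjusted p = 0.000108). Mobp, a myelin gene, had 6 counts at E15.5 and 30844 at P14, a ratio of 4045 (1858 to 11022) with its 95% exact counting interval. Fam107a, an actin-associated gene abundant in astrocytes, had a ratio of 2002 (971 to 4979.7) and Gjc3, an oligodendrocyte gap junction gene, one of 1895 (648 to 9192). Intervals of this kind cover counting error only. The other 4 of the 8 largest rises were Gpr37l1, a receptor gene of astrocytes, Mal, a myelin gene, Tmem125 and Hsd11b1, which converts inactive to active glucocorticoid.

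Most genes with the largest absolute gains in mean CPM were ones known from glia, vessels or choroid plexus. Slc1a3, the glutamate transporter of Bergmann glia, was at 59.7, 52.9 and 102 CPM at E15.5 and at 1717, 1560.4 and 1269 CPM at P14 (log2 fold change 4.40 ± 0.34, adjusted p = 1.86e-07). Every P14 library was high and the groups did not overlap. Sparcl1 and Enpp2 reached 1980.0 ± 251 CPM and 1850.0 ± 359 CPM (SD, n = 3) from 89.5 ± 36.9 CPM and 33.6 ± 3.77 CPM. Ttr, transthyretin of choroid plexus, was at 27.9, 276 and 24.3 CPM against 5563, 8277 and 4969 CPM, a call lost within the counting set of P14 (adjusted p = 0.107), where its 1 E15.5 library is the high one. The axonal adhesion gene Cntn2, described below with the migration genes, was also among these gains.

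The largest falls included genes known from other early neurons of the hindbrain and midbrain. Pou4f2, a transcription factor gene of projection neurons (ENSMUSG00000031688, mm9 chr8:80956908-80960544), had 767 counts at E15.5 and 0 at P14, which puts it at least 325-fold lower. Robo3, an axon guidance receptor gene of commissural neurons (ENSMUSG00000032128, mm9 chr9:37223630-37240748), was at 338, 189 and 295 CPM at E15.5 and at 0.101, 0.241 and 0.234 CPM at P14 (log2 fold change -10.44 ± 1.10, adjusted p = 2.9e-06). Its mean at P1 was already 9.62 ± 6.1 CPM (SD, n = 3). Fgf15, a growth factor gene of the embryonic midbrain and hindbrain, was at 25.1, 18 and 75.4 CPM and fell to 3 counts in all P14 libraries, a ratio of 1552 (531 to 7531). All E15.5 libraries lay far above all P14 libraries for these genes. Myh8, a myosin heavy chain gene, Cartpt, a neuropeptide gene, Igf2bp1, a fetal RNA-binding protein gene, and the cadherin family genes Cdhr1 and Cdh9 completed the 8, with log2 fold changes of -8.60, -8.17, -7.57, -7.50 and -7.39.

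**Figure D2:**
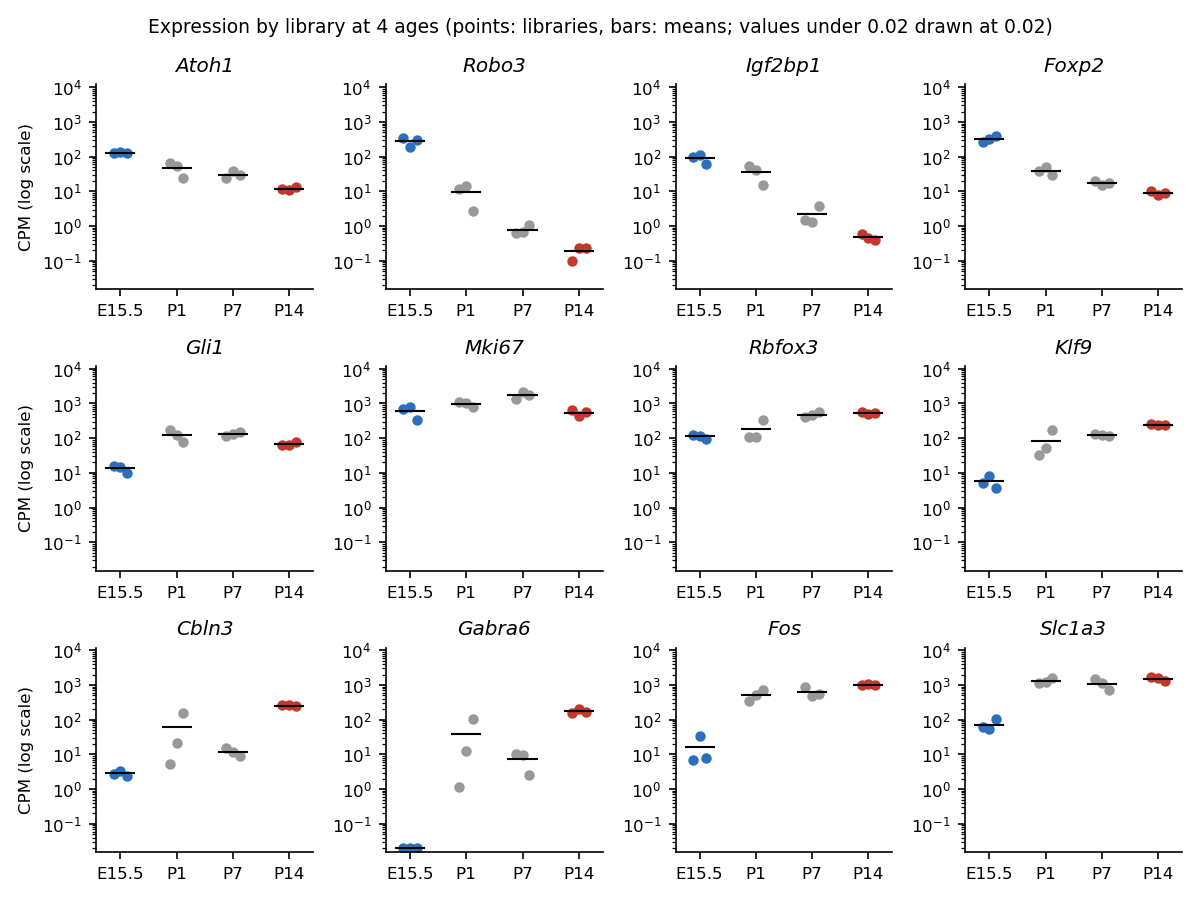
CPM of 12 genes (log scale) in each library at E15.5 (blue), P1 and P7 (grey) and P14 (red), with points for libraries and bars for means of 3. Robo3, Igf2bp1 and Foxp2 step down with age, Gabra6 is at 0 in all E15.5 libraries and between 160.5 and 202 CPM at P14, and Mki67 overlaps between E15.5 and P14.

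Early lineage transcription factors were lower more often than higher. Atoh1 (ENSMUSG00000073043, mm9 chr6:64679140-64681227), the gene that specifies rhombic lip neurons, was at 124, 138 and 124 CPM at E15.5 and 11.7, 10.9 and 13.1 CPM at P14 (log2 fold change -3.43 ± 0.30, adjusted p = 5.99e-07). Every E15.5 library was high and every P14 library low. Of 24 rhombic lip and early lineage factors, 11 were lower (45.8% against 24.2% of all genes) and 3 were higher (12.5% against 26.7%), with a median log2 fold change of -0.35 beside -0.03 over all genes tested. In the fit of the 6 libraries alone 6 were higher. Lhx9 and Lhx2, LIM homeobox genes of cerebellar nuclear and other early neurons, and Meis2 led the falls, with log2 fold changes of -7.39 ± 0.63, -3.51 ± 0.54 and -7.06 ± 0.67. Lhx9 was uneven at E15.5, at 119.9, 34.3 and 31.6 CPM, and was under 1 CPM in all P14 libraries.

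Other granule lineage factors rose or did not pass. Zic1, a zinc finger gene expressed from precursor to mature granule neuron, was called higher, from 1115, 1317 and 883 CPM to 1991, 1825 and 1962 CPM (log2 fold change 0.80 ± 0.21, adjusted p = 0.00489). Neurod1, which acts as precursors leave the cycle, rose from 523, 654 and 422 CPM to 1189, 1126 and 1106 CPM. Neither call held within the counting set of P14 (adjusted p = 0.0936 and 0.0765). Zic1, Barhl2 (3.03 ± 0.33) and Insm1 were the 3 higher genes of the early lineage list, and Neurod1 belongs to the maturation list. Pax6 was at 479, 592 and 438 CPM and 423, 432 and 431 CPM, and Barhl1 at 548, 442 and 344 CPM and 383, 318 and 367 CPM, and neither passed the test (adjusted p = 0.521 and 0.285). Insm1, a zinc finger gene of neurons that have just left or are about to leave the cycle, was higher by a log2 fold change of 1.41 ± 0.35 (adjusted p = 0.00343).

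Proliferation genes were still expressed at P14. None of the 27 cell cycle and replication genes tested was called higher and 13 were called lower (48.1% against 24.2%), with a median log2 fold change of -0.51. In the fit of the 6 libraries alone 1 was higher. Mcm6, a subunit of the replicative helicase, was at 260.4, 253 and 349 CPM and 104, 97 and 115 CPM (log2 fold change -1.45 ± 0.21, adjusted p = 6.11e-05), and Mcm2 and the loading factor gene Cdc6 fell by 1.22 and 1.21 on the log2 scale. No library of 1 group reached the range of the other for Mcm6. The 5 helicase genes of the list that were tested (Mcm2, Mcm3, Mcm5, Mcm6 and Mcm7) were all lower. Mcm4, also on the list, was not analysed here. The mitotic genes Mki67 and Top2a did not pass. Mki67 was at 707, 813 and 339 CPM against 635, 448 and 551 CPM (log2 fold change -0.19 ± 0.31, adjusted p = 0.641), and Top2a at 391, 434 and 348 CPM against 466, 398 and 473 CPM (0.19 ± 0.20, adjusted p = 0.438), so that the groups overlapped for both.

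Of 10 genes of D cyclins, their kinases and CDK inhibitors, 3 were higher (30% against 26.7%) and 2 lower (20% against 24.2%), near the background. The list median log2 fold change was 0.66, and 0.36 within the counting set of P14. Among the brakes on the cycle, Cdkn2c (p18), Cdkn1a (p21) and Cdkn1b (p27) were higher and Cdkn1c (p57) was lower. Cdkn1b stood at 125, 130.4 and 102 CPM at E15.5 and 275, 266 and 265 CPM at P14 (log2 fold change 1.18 ± 0.18, adjusted p = 7.27e-05). Cdkn1c went the other way, from 287, 157 and 349 CPM to 25.4, 30.4 and 27 CPM (log2 fold change -3.26 ± 0.31, adjusted p = 9.92e-07). Groups were separate for both genes. Cdk4, the partner kinase of D cyclins, was the other gene of this list called lower (-1.32 ± 0.27). Ccnd1 and Ccnd2, the D cyclins of granule precursors, did not pass (log2 fold changes -0.79 ± 0.34 and 0.51 ± 0.25, adjusted p = 0.0674 and 0.103), although the libraries of the groups did not overlap and both passed in a fit of the 6 libraries alone (adjusted p = 0.00179 and 0.0319).

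The Sonic hedgehog target genes Gli1, Ptch1 and Hhip were higher at P14 than at E15.5. Of 15 pathway genes, 5 were higher (33.3% against 26.7%) and 4 lower (26.7% against 24.2%), near the background in both directions. Gli1, a transcription factor gene that is itself induced by the pathway, was at 16, 15.1 and 10.2 CPM at E15.5 and 61.9, 63.2 and 75.6 CPM at P14 (log2 fold change 2.29 ± 0.39, adjusted p = 0.000218). Its means at P1 and P7 were 125 ± 45.1 and 130.5 ± 15.8 CPM (SD, n = 3), so that both fell above the P14 mean of 66.9 ± 7.56 CPM. Ptch1, the receptor and another target gene, went from 105, 129 and 53.9 CPM to 244, 175 and 198 CPM (1.10 ± 0.29, adjusted p = 0.005). Hhip, which binds and limits the ligand, was under 1 CPM in each E15.5 library and at 11.5, 10.5 and 8.79 CPM at P14. These 3 genes separated the groups. Sfrp1 and the repressor gene Sufu were the remaining risers. Gpr161, a ciliary receptor that restrains the pathway, and the co-receptor gene Cdon were lower, along with the ciliary gene Evc2 and the target gene Mycn. Mycn was at 153, 147 and 172 CPM and 82, 80.1 and 104 CPM (log2 fold change -0.83 ± 0.22, adjusted p = 0.00652), a call lost within the counting set of P14 (adjusted p = 0.0748). The calls on Cdon and Evc2 were lost without E15.5 replicate 1 (adjusted p = 0.0744 and 0.061), and that on Cdon also without P14 replicate 2 or 3 (0.0667 and 0.078). Smo, the signal transducer, was at 107, 106 and 109 CPM and 94.9, 99.2 and 103 CPM and did not pass (adjusted p = 0.672).

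Most maturation transcription factors rose. Of 21, 15 were higher (71.4% against 26.7%) and 1 was lower (4.76% against 24.2%), with a median log2 fold change of 1.36. Klf9, a thyroid hormone responsive gene, was at 5.15, 8.35 and 3.62 CPM at E15.5, 84.3 ± 73.1 CPM at P1, 122 ± 8.5 CPM at P7 (mean ± SD, n = 3) and 252, 238 and 236 CPM at P14 (log2 fold change 5.44 ± 0.52, adjusted p = 1.1e-06). Bcl6, a repressor gene active in neuronal differentiation, went from 1.13, 0.835 and 0.394 CPM to 10.9, 10.5 and 10.4 CPM. All 4 nuclear factor I genes were higher, by 1.83 for Nfia, 1.36 for Nfib, 2.38 for Nfic and 2.79 for Nfix. Fos, an activity-induced gene that this list also held, showed the largest rise of the list and is described with the immediate early genes. The 1 gene called lower was Thra, a thyroid hormone receptor gene, at 691, 685 and 997 CPM against 377, 419.7 and 419 CPM (log2 fold change -0.97 ± 0.20, adjusted p = 0.00109). Klf9 and Thra, the responsive gene and a receptor of the same hormone, thus moved in opposite directions, each without overlap of libraries.

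Inhibitory receptor genes changed subunit by subunit. Of 13 GABA-A subunit genes, 7 were higher (53.8% against 26.7%) and 3 were lower (23.1% against 24.2%). Gabrd, the δ subunit that pairs with α6 in extrasynaptic receptors, had 4 counts at E15.5 and 41.5, 49.9 and 49.8 CPM at P14, a ratio of 862 (336 to 3163). Gabrb1 rose from 1.26, 2.25 and 0.893 CPM to 25.5, 25.1 and 19.8 CPM. Gabra3, an embryonic subunit gene, fell from 36.5, 53 and 49.2 CPM to 8.73, 9.4 and 9.36 CPM (log2 fold change -2.33 ± 0.28, adjusted p = 1.04e-05). Gabra2 was at 12.2, 22.9 and 11 CPM and 38.1, 30.9 and 32.9 CPM and did not pass (adjusted p = 0.0762), but did so in the fit of the 6 libraries alone (0.00929) and without E15.5 replicate 2 (0.043). The promoters of Gabra6 and of Cbln3, the granule neuron markers with the largest rises, are shown because both were near or at 0 in E15.5 and high in all P14 libraries. They cover the 250 bases before the start in RefSeq (GRCm38.p6), and capitals mark TTGGC on either strand (GCCAA on the strand printed), the core letters bound by nuclear factor I proteins, whose genes were among the maturation factors that rose.
Gabra6 (chr11:42321073-42321322, - strand): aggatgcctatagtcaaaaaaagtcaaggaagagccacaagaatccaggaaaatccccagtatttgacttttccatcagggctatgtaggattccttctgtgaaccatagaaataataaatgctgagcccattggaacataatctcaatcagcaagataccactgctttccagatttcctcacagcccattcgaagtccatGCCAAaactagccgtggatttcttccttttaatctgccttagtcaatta
Cbln3 (chr14:55884257-55884506, - strand): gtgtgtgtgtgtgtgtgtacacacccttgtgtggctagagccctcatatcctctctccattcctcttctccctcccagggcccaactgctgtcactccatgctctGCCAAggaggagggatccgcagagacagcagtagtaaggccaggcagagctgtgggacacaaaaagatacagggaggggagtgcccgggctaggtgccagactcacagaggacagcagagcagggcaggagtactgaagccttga
Each holds 1 match, and 41.5% of 32851 promoters of that length hold at least 1, so the match is a description of these letters only.

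Excitatory receptor genes also changed in both directions. Of 22 glutamate receptor genes, 11 were higher (50% against 26.7%) and 5 lower (22.7% against 24.2%), and without E15.5 replicate 3, without P14 replicate 1 or within the counting set of P14 the number higher was 6. The number lower was 3 when P14 replicate 2 was left out. Grm4, the presynaptic metabotropic receptor of parallel fibres, was at 7.98, 5.76 and 5.02 CPM and 244, 185 and 215 CPM (log2 fold change 5.10 ± 0.89, adjusted p = 0.000251). The AMPA subunit gene Gria4 rose from 68.5, 71.8 and 48.3 CPM to 421, 377 and 341 CPM. The kainate subunit genes Grik3 and Grik1 fell by 2.73 and 1.90 on the log2 scale, and Grik3 was at 251, 295 and 101 CPM against 38.6, 28.4 and 30.6 CPM. Grik3 and Grm4 separated the groups in opposite directions. Of the NMDA subunits, Grin2c, which replaces Grin2b in mature granule neurons, was at 47.9, 36.9 and 32.7 CPM and 96.3, 98.7 and 112 CPM without passing (adjusted p = 0.245), while it passed in the fit of the 6 libraries alone (0.000356) and within the counting set of P14 (0.0359). Grin2b was called higher (1.78 ± 0.63, adjusted p = 0.0278), but not without E15.5 replicate 1 (0.066), E15.5 replicate 3 (0.113) or P14 replicate 1 (0.0934), nor within the counting set of P14 (0.238).

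Ion channel genes were more often higher than the background. Of 32 voltage-gated and leak channel genes, 21 were higher (65.6% against 26.7%) and 4 lower (12.5% against 24.2%), with 7 higher within the counting set of P14, where the median log2 fold change was 0.95 in place of 1.34. Kcna1, a potassium channel gene of axons, went from 15.2, 27.6 and 8.17 CPM to 179, 133 and 146 CPM, a call lost within the counting set (adjusted p = 0.0947). Kcnk12, of the 2-pore potassium channel family, reached 13.7 ± 1.04 CPM from 1.4 ± 0.471 CPM (SD, n = 3). Scn3a, the sodium channel of the embryonic brain, fell from 82.8 ± 16 CPM to 12 ± 1.71 CPM (SD, n = 3, log2 fold change -2.79 ± 0.21, adjusted p = 1.4e-07), and Kcnd3 and Scn3b fell with it (-1.73 and -1.47).

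At the presynapse 10 of 26 genes were higher (38.5% against 26.7%) and 3 lower (11.5% against 24.2%). Cbln3 (ENSMUSG00000040380, mm9 chr14:56497757-56503093), a secreted cerebellin of granule neurons, was at 2.75, 3.42 and 2.42 CPM at E15.5 and 261, 259.9 and 243 CPM at P14 (log2 fold change 6.50 ± 0.99, adjusted p = 8.02e-05). Its P1 libraries were uneven, with a mean of 62 ± 84.3 CPM (SD, n = 3). Slc17a7, the vesicular glutamate transporter VGLUT1 of parallel fibres, went from 17, 18.5 and 13.7 CPM to 239, 250.1 and 245 CPM, and Syt2, a fast calcium sensor gene, from 5.19, 5.85 and 2.99 CPM to 85.5, 75.1 and 83.4 CPM. All 3 were low in every E15.5 library and high in every P14 library. Syt1 was lower, at 403, 505 and 299 CPM against 217, 177 and 184 CPM (-1.06 ± 0.24, adjusted p = 0.00178). The falls of Nrxn3 and Stx1a were the other lower calls, and the number of lower calls was 1 with upper quartile scaling and without P14 replicate 2 or 3.

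**Figure D3:**
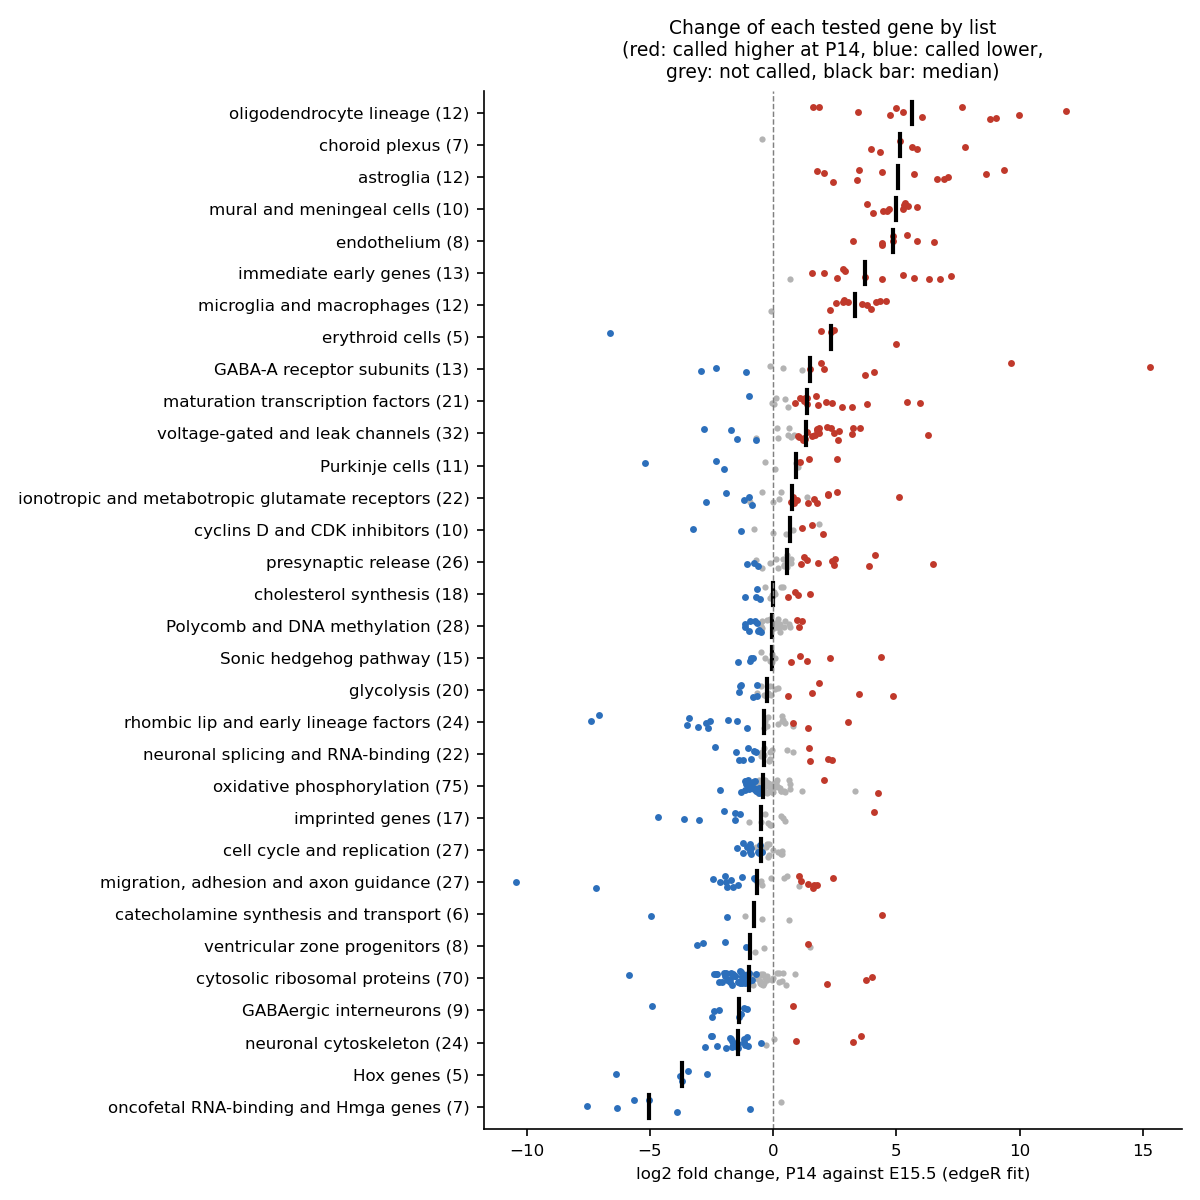
Fitted log2 fold change (P14 against E15.5) of every tested gene in each list drawn, with the number tested in brackets, 1 point per gene. The marker lists of granule neurons and granule neuron precursors are not drawn. Red and blue points were called higher and lower at P14, grey points were not called, and bars mark list medians, which run from -5.05 for fetal RNA-binding genes to 5.64 for oligodendrocyte lineage markers. The rightmost point, Gabra6, had 0 counts at E15.5 and its fitted value depends on the prior count.

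Ratios of paired genes were compared within each library, which needs no scaling between libraries. Of 19 pairs with values, the log2 ratio did not overlap between E15.5 and P14 in 16. In 12 of these 16 the gene listed as the later form gained on the earlier one. Levels of single genes did not overlap for 66.5% of those tested, which is a different measure. The share for ratios of other gene pairs was not computed, so the 16 pairs have no background of their own kind. With 3 libraries against 3 the exact two-sided permutation test cannot go below 0.1, and the smallest value adjusted over the 19 pairs was 0.119, so no pair carries a call. Slc17a7 over Slc17a6, the vesicular glutamate transporters of mature and young granule neurons, had log2 ratios of -2.56, -2.34 and -2.06 at E15.5 and 0.94, 1.04 and 0.92 at P14. The ratio was higher in every P14 library, by 3.29 on average. Counts were not corrected for length, so only the shift of a ratio is read. Scn8a over Scn3a shifted from 1.31, 1.01 and 0.19 to 4.50, 4.34 and 4.33. Vamp1 over Vamp2, the synaptobrevins, moved by 2.48 towards Vamp1. Ezh1 over Ezh2, the catalytic subunits of Polycomb repressive complex 2, moved from -3.13, -3.26 and -3.50 to -1.91, -2.03 and -1.87, without overlap.

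The pairs that moved the other way included subunits of the BAF chromatin remodelling complex. Dpf1 over Dpf2 went from -1.62, -1.68 and -1.12 at E15.5 to -3.34, -3.15 and -3.23 at P14. Ss18l1 over Ss18 went from 0.42, 0.71 and 0.39 to -0.41, -0.54 and -0.51, and Actl6b over Actl6a from 0.66, 0.93 and 0.80 to 0.16, 0.14 and 0.09. In each of these 3 pairs the neuronal subunit, named first, had the higher ratio at E15.5 in all libraries. Hk1 over Hk2, the hexokinases, was the fourth such pair, at 3.11, 3.39 and 4.17 and 1.56, 1.43 and 1.69. Ratios overlapped for Grin2c over Grin2b, Slc12a5 over Slc12a2 and Kcnc1 over Kcnc2. Slc12a5 and Slc12a2, the chloride exporter KCC2 and importer NKCC1, were both called higher in the gene test (1.95 ± 0.51 and 2.18 ± 0.24), and the call on Slc12a5 was lost within the counting set of P14 (adjusted p = 0.153) and in the transcript counts (0.0729).

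**Figure D4:**
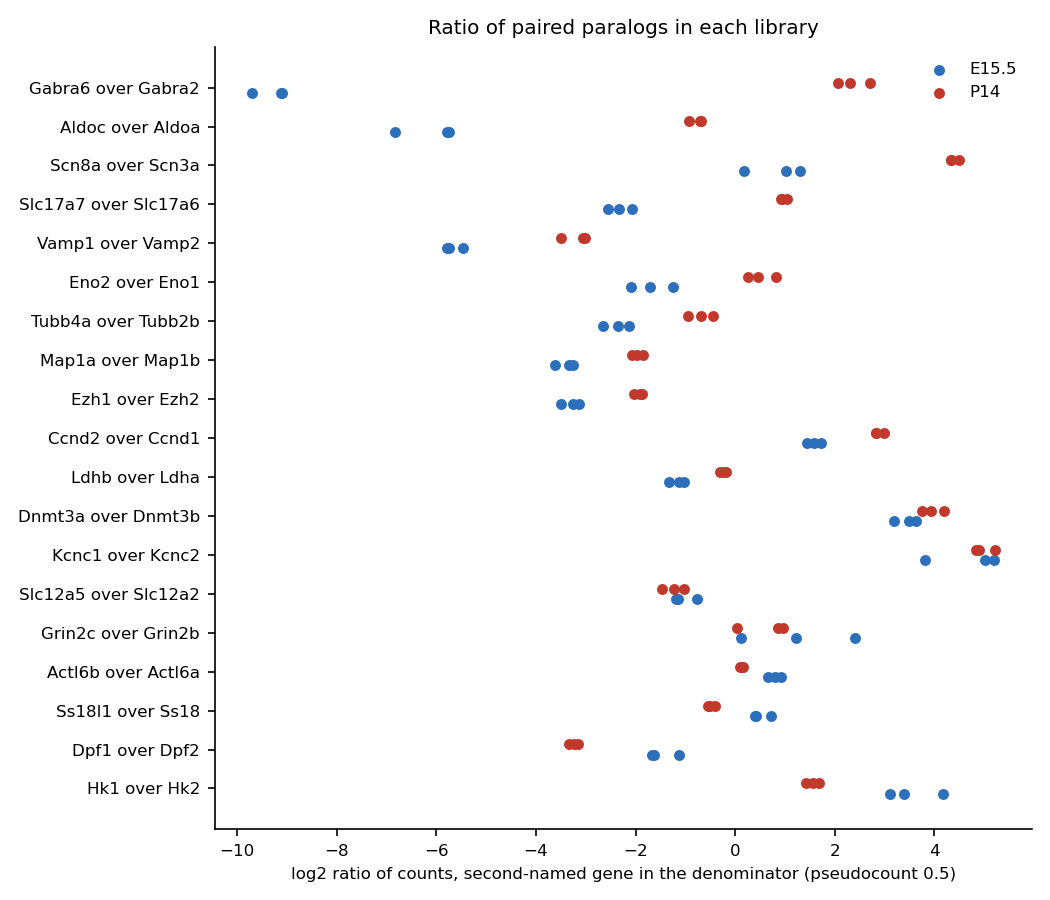
Log2 ratio of read counts (pseudocount 0.5) of paired genes in the 3 E15.5 (blue) and 3 P14 (red) libraries, 1 row per pair ordered by the shift. Gabra6 over Gabra2 and Aldoc over Aldoa shift most towards the first-named gene, by 11.68 (with Gabra6 at 0 counts at E15.5, so that its value rests on the pseudocount) and 5.35, and Hk1 over Hk2 shifts most away from it.

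Immediate early genes, which are transcribed within minutes of depolarisation or growth factor exposure, were higher at P14 almost without exception. Of 13, 12 were higher (92.3% against 26.7%) and none was lower, with a median log2 fold change of 3.73. Fosb was at 4.06, 2.34 and 0.578 CPM at E15.5 and 344, 309 and 346 CPM at P14 (log2 fold change 7.21 ± 0.99, adjusted p = 3.28e-05). Nr4a1, a nuclear receptor gene, went from 2.57, 3.67 and 1.89 CPM to 189, 216 and 222 CPM, and Egr3 from 0.0436, 0.251 and 0.0788 CPM to 12.1, 9.64 and 11.8 CPM. Fos was at 6.72, 34.9 and 8.01 CPM and 972, 1033 and 1003 CPM (5.95 ± 0.86, adjusted p = 4.91e-05). At E15.5, replicate 2 was the high library for Fos, and the groups were still far apart. Within the counting set of P14, which keeps only that E15.5 library, the median over the list was 2.59, and without it the median was 4.60. P1 and P7 libraries stood between, with Fos means of 526 ± 183 and 641 ± 221 CPM (SD, n = 3). Arc was the 1 gene that did not pass, at 4.62, 6.01 and 4.46 CPM and 7.48, 7.89 and 8.46 CPM (adjusted p = 0.189). The marker levels given above moved in the same libraries, and their part in this rise was not tested.

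Promoters of 4 of the genes that rose together are shown, since CREB, which binds cAMP response elements, is a known regulator of this class. They cover the 250 bases before the start in RefSeq (GRCm38.p6), and capitals mark the half-element TGACG on either strand (CGTCA where it lies on the other strand). Fos, Fosb and Nr4a1 were picked for their rise, and Npas4 because it responds to depolarisation, after their values were seen.
Fos (chr12:85473640-85473889, + strand): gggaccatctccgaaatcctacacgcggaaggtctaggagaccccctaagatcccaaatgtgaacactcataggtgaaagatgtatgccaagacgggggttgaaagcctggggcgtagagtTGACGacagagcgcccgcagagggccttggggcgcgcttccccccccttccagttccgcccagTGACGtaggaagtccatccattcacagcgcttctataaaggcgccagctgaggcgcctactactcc
Fosb (chr7:19310046-19310295, - strand): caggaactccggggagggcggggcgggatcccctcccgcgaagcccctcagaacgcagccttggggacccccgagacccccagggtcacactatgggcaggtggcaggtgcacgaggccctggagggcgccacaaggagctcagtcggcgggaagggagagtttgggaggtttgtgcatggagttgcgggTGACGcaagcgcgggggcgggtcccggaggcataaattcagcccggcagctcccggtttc
Nr4a1 (chr15:101266596-101266845, + strand): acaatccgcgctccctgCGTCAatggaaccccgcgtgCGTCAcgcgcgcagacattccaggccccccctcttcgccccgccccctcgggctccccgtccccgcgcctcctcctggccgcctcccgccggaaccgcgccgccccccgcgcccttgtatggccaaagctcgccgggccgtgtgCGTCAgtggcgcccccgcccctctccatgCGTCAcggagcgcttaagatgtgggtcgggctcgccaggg
Npas4 (chr19:4989972-4990221, - strand): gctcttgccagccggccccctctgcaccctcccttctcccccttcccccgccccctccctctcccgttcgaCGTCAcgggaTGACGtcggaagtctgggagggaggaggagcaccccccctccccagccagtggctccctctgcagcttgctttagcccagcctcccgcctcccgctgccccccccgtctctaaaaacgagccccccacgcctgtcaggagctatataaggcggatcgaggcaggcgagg
Nr4a1 holds 4 matches, Fos and Npas4 2 each and Fosb 1. Of the 14 genes of this class (the 13 listed and Fos), 10 had a promoter entry, and 9 of the 10 held TGACG at least once, against 17.8% of 32851 promoters of that length. The class was already known for regulation by CREB, and the 32851 promoters were not matched to it for base content. These shares therefore do not bear on the difference between ages. The match describes the letters in this window, not a bound site. Npas4 was at 3.58, 3.84 and 1.79 CPM at E15.5 and 58.8, 62.5 and 71.9 CPM at P14.

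Axon guidance and adhesion genes fell more often than they rose. Of 27 migration, adhesion and guidance genes, 13 were lower (48.1% against 24.2%) and 7 higher (25.9% against 26.7%), with 4 higher within the counting set of P14. Slit1, a repellent ligand gene, fell from 132, 129 and 103 CPM to 1.04, 0.603 and 0.836 CPM (log2 fold change -7.19 ± 0.53, adjusted p = 1.22e-07). Nrp2, a semaphorin co-receptor gene, fell from 112, 166 and 87.9 CPM to 24.8, 22 and 20.9 CPM. No P14 library came near the E15.5 range for either gene. Unc5b, a netrin receptor gene, and Cntn1, an axonal contactin gene, were higher by 2.43 ± 0.41 and 1.79 ± 0.23. Cntn2 (TAG-1), a marker of granule cells extending parallel fibres, was at 805, 601 and 399 CPM and 2239, 1569 and 1857 CPM (1.65 ± 0.52, adjusted p = 0.015), and the call was lost without E15.5 replicate 3 (0.0757) and within the counting set of P14 (0.0741). Dcx, the microtubule protein of migrating neurons, was at 1467, 1962 and 1027 CPM and 1134, 796 and 901 CPM and did not pass (-0.65 ± 0.26, adjusted p = 0.0504). It passed without E15.5 replicate 3 (-0.93, 0.0088), without P14 replicate 1 (0.0434), with DESeq2 (0.0365) and within the counting set of P14 (0.0112).

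Most neuronal cytoskeleton genes fell: 19 of 24 were lower (79.2% against 24.2%) and 3 higher (12.5% against 26.7%), with a median log2 fold change of -1.43. Tubulin genes made up much of the largest loss of mean CPM. Tubb3, the neuronal β-tubulin, was at 3124, 2860.3 and 5277 CPM at E15.5 and 737, 796 and 798 CPM at P14 (log2 fold change -2.27 ± 0.37, adjusted p = 0.000136). Tuba1a went from 5254, 5867 and 11019 CPM to 2321, 2551 and 2296 CPM and Tubb5 from 6056, 5499 and 11477 CPM to 2590.1, 2627 and 2799 CPM. E15.5 replicate 3 was the highest library for all 3 genes, and the other E15.5 libraries also lay above every P14 library. Tubulin genes have near-identical copies, so reads could be lost or split between them in the deposited counts. Map1b, with a long transcript, was lowest at E15.5 in replicate 3, at 3139.5, 4939.6 and 1478 CPM against 1401, 609 and 869 CPM at P14 (-1.73 ± 0.41). The neurofilament genes parted: Nefl and Nefm fell by 2.78 and 2.49 on the log2 scale, and Nefh, the subunit that enters last in axon maturation, rose from 1.57, 1.09 and 1.02 CPM to 13.4, 8.53 and 13 CPM, a call lost within the counting set of P14 (adjusted p = 0.057). Tuba4a was the largest riser, at 6.93, 9.52 and 8.4 CPM against 89.6, 102 and 98.8 CPM. Eef1a1, a translation elongation factor, and Hsp90ab1, a chaperone, were the other genes with the largest losses in CPM and fell by 1.85 and 1.01 on the log2 scale.

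Fetal growth regulators fell to low levels. Of 7 fetal RNA-binding and Hmga genes tested, 6 were lower (85.7% against 24.2%) and none higher, with a median log2 fold change of -5.05 (-3.91 with DESeq2). Igf2bp1 (ENSMUSG00000013415, mm9 chr11:95818477-95867254), which stabilises growth-related messages in embryonic tissue, was at 101, 109 and 62.8 CPM at E15.5, 36.9 ± 19.9 CPM at P1, 2.2 ± 1.33 CPM at P7 (mean ± SD, n = 3) and 0.573, 0.452 and 0.401 CPM at P14 (log2 fold change -7.57 ± 0.73, adjusted p = 1.19e-06). Lin28b, which blocks maturation of let-7 microRNAs, went from 26.4, 30.9 and 16.3 CPM to 0.775, 0.603 and 0.836 CPM, and Hmga2, a chromatin protein gene targeted by let-7, from 16.4, 21 and 16.4 CPM to 0.202, 0.271 and 0.167 CPM. Igf2bp2 fell by 5.64 on the log2 scale. Each of these 4 genes was high in all E15.5 libraries and at most 2.4 ± 0.161 CPM (mean ± SD, n = 3) at P14.

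Imprinted genes, expressed from 1 parental allele, were lower more often than the background: 7 of 17 fell (41.2% against 24.2%) and 1 was higher (5.88% against 26.7%). Nnat, neuronatin, fell from 1341, 1346 and 2670.0 CPM to 122, 158 and 161 CPM (log2 fold change -3.60 ± 0.41, adjusted p = 5.28e-06), and Magel2 and the growth adaptor gene Grb10 fell by 4.65 and 3.01 on the log2 scale. Igf2, a growth factor gene that meninges and choroid plexus express strongly, was the exception, at 15.8, 31.7 and 18.7 CPM against 426, 382 and 299 CPM (4.07 ± 0.31). Marker levels of those tissues rose in the same libraries, as given above, and their part in the rise of Igf2 was not tested. All 5 of 38 Hox genes that passed the low-count filter were lower (100% against 24.2%), and with no filter 9 were lower and 1 higher. Within the counting set of P14, 2 were lower. Hoxd3 had 1 count at P14 and 1.57, 0.585 and 1.52 CPM at E15.5, a ratio of 128 (22.5 to 5120.0).

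Among Polycomb and DNA methylation genes, more were called lower than higher, but the list did not shift as a whole. Its median log2 fold change was -0.03 beside -0.03 over all genes tested, with 14 positive and 14 negative changes. Of 28, 9 were lower (32.1% against 24.2%) and 3 higher (10.7% against 26.7%), and no member moved by more than 1.16 in log2. In the fit of the 6 libraries alone 6 were higher. Ezh2, the H3K27 methyltransferase named in the title of the series, was at 209.7, 220.2 and 244 CPM at E15.5 and 104, 97.9 and 102 CPM at P14 (log2 fold change -1.15 ± 0.19, adjusted p = 0.000142). Its E15.5 libraries all lay above its P14 libraries. Cbx2, a Polycomb reader, and Dnmt1, the maintenance methyltransferase, fell by 1.13 and 0.98 on the log2 scale. Tet2 and Cbx7 were higher (1.16 and 1.03), as was Tet1 (0.98), whose call was lost without E15.5 replicate 3 (0.065), without P14 replicate 1 (0.0583) and within the counting set of P14 (0.241). Eed and Suz12, the partners of Ezh2, and Ezh1 did not pass.

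Neuronal splicing and RNA-binding genes were lower more often than the background, and metabolic genes were near the background or depended on single libraries. Of 22 neuronal splicing and RNA-binding genes, 8 were lower (36.4% against 24.2%) and 4 higher (18.2% against 26.7%). Rbfox3, which encodes the neuronal antigen NeuN, rose from 123, 116 and 96.5 CPM to 551, 484 and 526 CPM (log2 fold change 2.22 ± 0.37, adjusted p = 0.000185), and Mbnl2, a regulator of adult splice forms, from 34.6, 33.2 and 27.5 CPM to 179, 156 and 168 CPM. Ptbp2, a splicing repressor of young neurons, fell from 447, 497 and 547 CPM to 197, 179 and 193 CPM. Rbfox3, Mbnl2 and Ptbp2 each separated the groups. In glycolysis 5 of 20 genes were higher (25% against 26.7%) and 6 lower (30% against 24.2%), with 3 higher without E15.5 replicate 1. Aldoc, an aldolase that astrocytes also express, rose from 8.5, 3.76 and 14.9 CPM to 268, 257 and 282 CPM, and Ldha fell from 417, 389.5 and 771 CPM to 191, 234 and 203 CPM. Of 18 cholesterol synthesis genes, 4 were higher and 4 lower (22.2% each), led by Insig1 (1.51 ± 0.23) and Acat2 (-1.13 ± 0.20). The number higher was 2 without E15.5 replicate 1 or 3, the number lower was 2 without E15.5 replicate 3 or P14 replicate 1 or 3, and both were 2 within the counting set of P14.

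Calls on nuclear oxidative phosphorylation genes and ribosomal protein genes moved with single libraries. Of 75 oxidative phosphorylation genes, 20 were lower (26.7% against 24.2%) and 2 higher (2.67% against 26.7%), with a median log2 fold change of -0.42, so that the lower share was near the background. Without E15.5 replicate 3, 10 were lower and 9 higher with a median of -0.07, and within the counting set of P14 8 were lower and 15 higher with a median of 0.09. Without E15.5 replicate 2, 31 were lower, without P14 replicate 1, 10, and without P14 replicate 3 or in the fit of the 6 libraries alone, 13. Sdhb, a subunit of complex II, shows the unevenness, at 205, 204 and 410.2 CPM in the E15.5 libraries against 103, 140.4 and 125 CPM. Of 70 ribosomal protein genes, 35 were lower (50% against 24.2%) and 3 higher (4.29% against 26.7%), with a median of -0.99 (-0.58 without E15.5 replicate 3), and within the counting set of P14 22 were lower with a median of -0.33. The number higher was 6 within that set, 5 without E15.5 replicate 3 and 1 in the transcript counts. Rplp0 was at 885, 784 and 1772 CPM and 189, 210.4 and 254 CPM. Ribosomal protein genes have many processed copies, and reads with several alignments were left uncounted in unequal shares, so single members are uncertain. Rps2 was at 4.19, 3.09 and 4.25 CPM and 46.8, 73.5 and 69 CPM in the gene counts (4.02 ± 0.66) and was lower at P14 in the transcript counts (-0.95). Rpl21 was higher in the gene counts (2.18 ± 0.27) and did not pass in the transcript counts (0.05, adjusted p = 0.881).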

How the data were processed

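The authors deposited raw read counts per gene, per transcription start site (TSS) model and per transcript for each library. The submitters' processing notes name Trimmomatic, TopHat, StringTie, HTSeq and mm9, with no versions. Poly(A) RNA was converted with a TruSeq v2 kit, per the labels' protocols, which does not mark strand, so antisense and overlapping genes cannot be separated. Symbols came from a reference table by Ensembl gene ID (20358 of 21889 genes matched) and positions from the deposited transcript table.

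Gene counts were tested with edgeR 4.0.16 (R 4.3.3): filterByExpr (minimum count 10, minimum total 15), TMM scaling, glmQLFit with 1 mean per group over all 15 libraries (10 residual degrees of freedom) and glmQLFTest of P14 minus E15.5, adjusted by Benjamini-Hochberg over 15259 genes and called under 0.05. Standard errors are the absolute log2 fold change over the square root of F. CPM values are counts per 1e+06 of the TMM-scaled library size. The fit was also run on simulated counts with a common spread and few changed genes. That setting differs from these data, so the run does not bear on error rates here. Gene lists are described by counts and medians without a test. Members and lists were chosen with earlier results of these data known. Named genes are a fixed set, the paralog pairs, the 8 largest changes in each direction, the 6 largest CPM gains and losses, and up to 3 rises and 3 falls per list, among called genes without overlap and with a mean of at least 5 CPM. Other genes named were chosen after their values were seen, among them Smo, Arc, Sufu, the nuclear factor I genes, Mcm3, Mcm5, Mcm7, Npas4, Hoxd3, Eed and Suz12. Ptbp1, Pcna, Mcm4, Aurka, Cdkn2d, Hmgcs1, Impact, Snrpn, Hba-a1 and Hba-a2 were not analysed here, and some genes that the rule names are not reported here.

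Alternatives were DESeq2 1.42.0, upper quartile and RLE scaling, no filter, glmTreat, the 6 libraries alone, a replicate block, each library left out, the transcript table, the counting set of P14 alone and, chosen after seeing the data, the fit without P1 replicate 3. The counting sets were defined by the ratio of gene to transcript counts of Tsnax, and 10 of 12911 genes differed between them by over 0.5 in log2, of which 3 were called.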

Additional observations from a re-analysis of the deposited data

How the results depend on the processing

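Across the alternatives, genes called higher numbered between 3543 (without E15.5 replicate 3) and 4541 (the 6 libraries alone), and genes called lower between 2867 (without P14 replicate 1) and 3917 by the same tool, with 4300 and 3984 by DESeq2. Of 7766 calls, 7722 were called in the same direction by DESeq2. Against a tested minimum of 2-fold, 805 genes were lower in place of 1820. Of 175 named genes called, 148 kept call and direction in all 15 alternatives, 26 lost the call in at least 1, and 1 (Rps2) turned direction. Calls were lost most often within the counting set of P14, where E15.5 is 1 library assumed to vary like the other groups. Of 1020 counts of calls per list and alternative, 55 moved by over 1.5 times. Rps2 turned from 4.02 to -0.95 in the transcript counts. The replicate block gave 4004 higher and 3499 lower genes. Deviations of same-numbered libraries from their group means correlated at 0.27, -0.31 and 0.03. Such values, with 3 libraries per group, cannot show whether the numbers pair libraries. Start site models called in opposite directions ranged from 0 to 1 gene when single libraries were left out (1 without E15.5 replicate 3). With counts near 0 at 1 age, fold changes are bounded by depth only.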

Other observations

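Globin and other erythroid genes differed in direction. Hbb-y, the embryonic β-like globin gene, had 239 counts at E15.5 and 2 at P14, a ratio of 152 (41.6 to 1261), and Hba-x, an embryonic α-like globin gene chosen after its values were seen, had 32 and 0, with no test given here. The adult globin gene Hbb-bs was at 8.85, 10.4 and 44.8 CPM and 95.8, 148 and 118 CPM (log2 fold change 2.48 ± 0.80, adjusted p = 0.0175), with the call lost without E15.5 replicate 1 (0.0691) or 2 (0.0643) and in the transcript counts (0.0714). Globin paralogs share sequence, so their single values are uncertain. Alas2, the erythroid enzyme of heme synthesis, went from 2.97, 2.09 and 2.44 CPM to 8.16, 10.4 and 10.7 CPM. All 5 erythroid markers tested were called, against 50.9% of all genes, and 4 of them were higher (80% against 26.7%), with 2 higher in the transcript counts. The call on Hbb-y was the 1 lower, and no marker was called lower within the counting set of P14.

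Th, tyrosine hydroxylase of catecholamine synthesis, was detected at E15.5 at 10.3, 6.1 and 12.3 CPM and was at 0.337, 0.181 and 0.401 CPM at P14 (log2 fold change -4.96 ± 0.39, adjusted p = 1.94e-07). Gch1, which makes the cofactor of that enzyme, fell with it, from 10.7, 10.5 and 17.9 CPM to 2.56, 3.71 and 4.34 CPM. Of 6 genes of the pathway tested, 2 were lower (33.3% against 24.2%) and 1 higher (16.7% against 26.7%). The higher gene was Ddc, the decarboxylase that follows tyrosine hydroxylase, with a log2 fold change of 4.41 ± 0.51 (adjusted p = 6.12e-06), and it was singled out after its values were seen.

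Among Purkinje cell markers, 3 of 11 were higher and 3 lower, which at 27.3% each is near the background of 26.7% and 24.2%. Single members are given as values. Foxp2 fell from 270.4, 322 and 405 CPM to 10.6, 7.68 and 9.12 CPM (log2 fold change -5.19 ± 0.33, adjusted p = 5.12e-08) and Lhx5 by 2.32 on the log2 scale, whereas Itpr1, the IP3 receptor gene, rose from 9.72, 12.7 and 5.04 CPM to 69.9, 30.6 and 62 CPM. Pvalb was lower, with the call lost within the counting set of P14 (0.0806), and 5 markers were higher there and without E15.5 replicate 3.

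Genes called higher were longer than genes called lower. Median genomic span was 26.3 kb for genes called higher and 17.9 kb for genes called lower, against 21.9 kb for all genes tested, over the 95% of genes with a position. The share of counts in long genes was lowest in E15.5 replicate 3, and its part in this difference was not tested.

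Of 16378 start site models tested, 8131 were called (49.6%). Only 25 genes had at least 2 models that mapped to a gene, and none of them had models called in opposite directions by edgeR, at an unadjusted p under 0.05 (0) or by DESeq2 (0).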
